A study of Mus musculus with 69 samples.

Results

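The genes examined carry glucose into vascular cells, break it down to lactate or sense it. They were 35 member genes, taken as the Ensembl identifiers of the deposited count tables that map to 35 chosen symbols, out of 56953 genes in all. By role they comprised 5 glucose transporters, 9 genes of upper glycolysis, 4 bifunctional Pfkfb enzymes that set the fructose 2,6-bisphosphate level, 6 genes of lower glycolysis, 4 genes of lactate formation and export, 3 genes of side branches and 4 genes of glucose sensing. The filter on low counts kept 34 members in WT VSMC, 32 in EC and 34 in KO VSMC. Mlxipl was not tested in any of them, nor were Slc2a4 and Slc2a12 in EC.

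RNA-Seq was performed on primary cultures of male C57BL/6 mice. WT VSMC were aortic smooth muscle cells, KO VSMC came from the aorta of mice in which Cre under the SM22 promoter had inactivated floxed Egfr alleles, and EC were cardiac cells, all labelled WT, enriched with beads as CD45-/CD31+. In each cell type, Control cells were compared with cells kept for 24 h in HG + FFA (20 mM glucose with sodium oleate and sodium palmitate at 100 µM each, where the labels give the fatty acid dose without naming the acids), in AII + NA (30 nM angiotensin II and 300 nM of a catecholamine) or in ALL 4 agents together. The study's methods name the catecholamine norepinephrine (noradrenaline, hence NA), while the labels name epinephrine. All incubations, Control included, held fatty acid-free albumin, VSMC were kept without serum from 24 h before the stressors, and the age of the mice was not given in the sources used here. A set is 1 culture divided over the treatments. WT VSMC had 4 sets (1 to 4) and n = 4 for each treatment. KO VSMC had 4 sets (5 to 8), with n = 4 except n = 3 for ALL. EC had 10 sets (9 to 18) from 9 animals, with n = 9 for Control, n = 10 for HG + FFA, n = 9 for AII + NA and n = 10 for ALL. EC sets 9 and 10 came from the animals of WT VSMC sets 1 and 2, and EC sets 16 and 15, although labelled WT, from the animals of KO VSMC sets 6 and 7.

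Glucose enters cells through facilitative transporters of the Slc2a family, is trapped by hexokinases, split by the glycolytic enzymes and leaves as lactate through Slc16a carriers. Phosphofructokinase is the main control point of the pathway, and the Pfkfb enzymes make and remove its activator fructose 2,6-bisphosphate. The paralogous factors Mlxip (MondoA) and Mlxipl (ChREBP) respond to glucose phosphates and act with Mlx on target genes such as Txnip and Arrdc4, which encode related arrestins that restrain glucose uptake.

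Because Txnip and Arrdc4 are textbook targets of the glucose sensors, the 250 bases before the start of their canonical transcripts are shown, 5′ to 3′ on the strand of the gene, in build GRCm39. In Txnip (chr3:96465017-96465266, + strand) the capitals mark a pair of sites CACGNG and CACGNG set 5 bases apart, the bases between them included, at positions -79 to -63 from the start. In Arrdc4 (chr7:68399000-68399249, - strand) they mark an E-box, CACGTG, at positions -180 to -175.
Txnip: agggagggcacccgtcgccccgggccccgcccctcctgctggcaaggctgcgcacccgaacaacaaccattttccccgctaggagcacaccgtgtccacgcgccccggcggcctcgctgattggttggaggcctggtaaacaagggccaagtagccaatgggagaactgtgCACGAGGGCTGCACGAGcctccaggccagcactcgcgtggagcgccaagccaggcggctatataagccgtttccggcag
Arrdc4: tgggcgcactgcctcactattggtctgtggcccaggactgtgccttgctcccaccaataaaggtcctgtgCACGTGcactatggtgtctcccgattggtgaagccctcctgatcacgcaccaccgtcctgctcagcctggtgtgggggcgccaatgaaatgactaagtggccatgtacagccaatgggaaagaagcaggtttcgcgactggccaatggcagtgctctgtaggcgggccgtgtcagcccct
Both strands of the same window were searched in 21664 protein-coding genes. The pair of like sites was found in 11 promoters (0.0508%), of which Txnip was the 1 member, and this form was written down after the Txnip sequence had been seen. Of the carbohydrate response element, a strict spelling of opposed sites was searched, CACGNG and CNCGTG at 5 bases apart. It was found in 9 promoters (0.0415%) and in 0 of the 35 members. Looser spellings of the element were not searched, so that this 0 does not show Txnip or the other members to lack the element. The E-box was in 1361 promoters (6.28%) and in 4 members, Arrdc4, Ldha, Pfkp and Slc16a1. The core of the hypoxia response element, ACGTG or GCGTG, which overlaps the E-box letters, was in 8952 promoters (41.3%) and in 22 of 35 members. A match of letters is a description and not a measured binding site.

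Total counts per library ranged from 23626664 to 37801299 in WT VSMC, from 23238979 to 35120866 in KO VSMC and from 17166133 to 43240489 in EC. Levels are given as FPM (counts per TMM-normalized library size, as edgeR's CPM), and a member is said to have changed where edgeR gave a false discovery rate (FDR) under 0.05 over all genes tested. The targeted gene, Egfr, was at 228 to 504 FPM in WT VSMC. In KO VSMC it was at 0.537 to 1.96 FPM in sets 6 to 8 and at 33.4 to 40.2 FPM in set 5. In EC it was at 2.16 to 3.16 FPM in set 16 and at 7.45 to 12.5 FPM in set 15, while set 18 was at 10.4 to 18.2 FPM and the other sets reached up to 166 FPM. The summed level of 6 endothelial markers had set means of 48.6, 116 and 50.4 FPM in EC sets 9, 11 and 13, and 486 to 3902 FPM in the other 7 EC sets. In WT VSMC set 2 the same sum was 47.9 FPM against 0.98 to 8.35 FPM in the other sets. Fibroblast markers (5 genes) summed to 4408 to 9437 FPM per set in WT VSMC, to 1491 to 5880 FPM in KO VSMC and to 605 to 9909 FPM in EC. Smooth muscle markers (6 genes) summed to set means of 3161 and 2887 FPM in EC sets 11 and 13 and of 211 to 784 FPM in the other EC sets. WT VSMC sets were at 708 to 1234 FPM. Of these markers, Acta2 was at 158 to 3745 FPM in EC. It was at 223 to 1884 FPM in WT VSMC, but Myh11, which defines the contractile cell, was at 3.02 to 13.6 FPM there. Myh11 was at 237 FPM on average in KO VSMC set 5. Among the cardiomyocyte markers, Myh6 was at 0 in every EC library, and Actc1 and Nppa were at up to 0.355 and 0.351 FPM. Tnnt2 of the same list was at 0.762 to 301 FPM (median 92.1) in EC and at 2.46 to 124 FPM in WT VSMC. In bulk RNA, fewer cells of a type and less RNA per cell cannot be told apart.

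All 3 cell types held RNA for a complete path from glucose to lactate under Control conditions. Compared per kilobase of the union of exons, since longer genes collect more reads, Txnip was the most abundant member in each cell type. It stood at 381 (WT VSMC), 218 (KO VSMC) and 235 FPM per kb (EC), and the values of this paragraph keep this order. Aldoa (aldolase A) stood at 170, 183 and 130 FPM per kb and Pgk1 (phosphoglycerate kinase) at 113, 169 and 142. Ldha (lactate dehydrogenase A) stood at 88.1, 101 and 86.4 FPM per kb, above Ldhb with 15.8, 28.1 and 10.9. Of the transporters, Slc2a1 (GLUT1) led with 14.1, 14 and 11.2 FPM per kb. The neuronal-type transporter Slc2a3 (GLUT3) was at 0.578, 0.297 and 0.12, and the insulin-regulated Slc2a4 (GLUT4) at 0.137, 0.138 and 0.0539. Hk1 (hexokinase 1) was at 12.2, 13.6 and 14.4 FPM per kb and its inducible paralog Hk2 at 1.2, 0.775 and 1.08. The phosphofructokinase subunits stood in the order Pfkl (9.11, 13.6 and 11.1), Pfkm (8.03, 9.51 and 9) and Pfkp (2.83, 3.22 and 3.19) in each cell type. Of the sensors, Mlxip was at 4.74, 3.94 and 5.81 FPM per kb and Mlxipl at 0.0207, 0.0183 and 0.0152, with 0 counts in some libraries of each cell type.

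**Figure D1:**
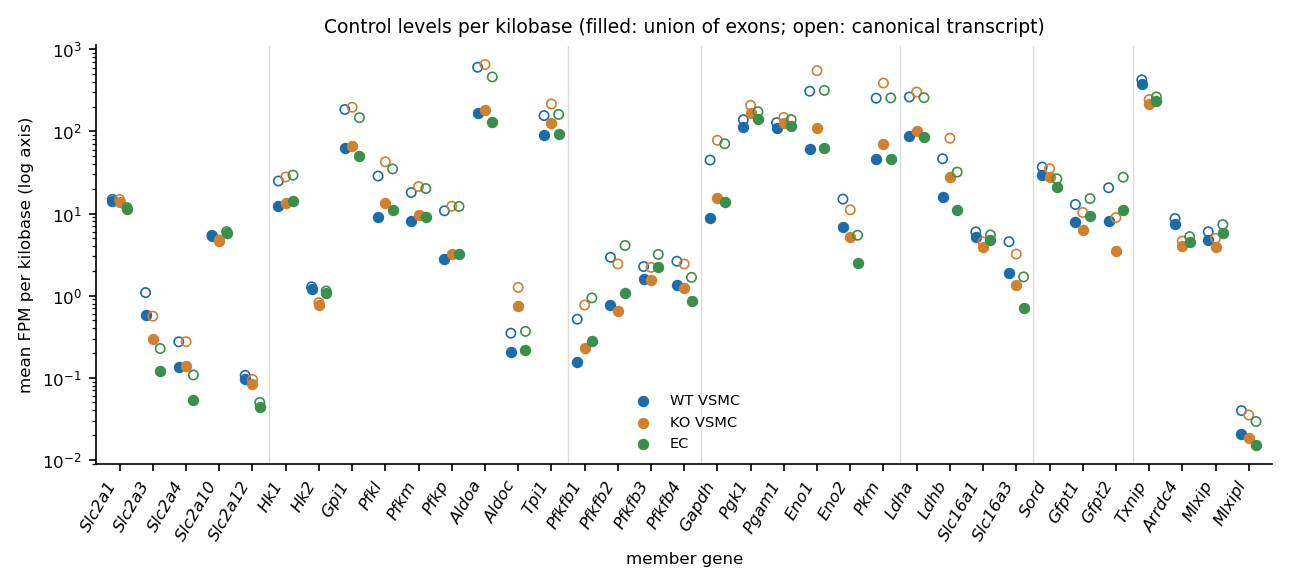
Mean Control level of the 35 members per kilobase, on a log axis, for WT VSMC, KO VSMC and EC. Filled symbols divide FPM by the union of annotated exons and open symbols by the canonical transcript. Txnip is the highest member by exon union (381, 218 and 235 FPM per kb) and Mlxipl the lowest (0.0207, 0.0183 and 0.0152 FPM per kb).

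The order of the most abundant members depended on the length used, since Aldoa stood at 605 FPM per kb of canonical transcript in WT VSMC against 170 per kb of exon union. Exons of other annotated genes cover 86.1% of the canonical transcript of Aldoa, 81.5% of that of Gapdh, 52.4% of that of Slc16a3, 43.3% of that of Pfkfb2, 42.5% of that of Pfkp and 38.4% of that of Pkm. Counts of these members are uncertain in level, since reads shared between genes may be split or dropped. Eno1 has a near-identical copy, Eno1b, which took 6.69% of the counts of the pair in WT VSMC, 8.21% in EC and 7.71% in KO VSMC.

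Members did not separate KO VSMC from WT VSMC under Control conditions by the test over all genes. Of 34 members, 0 passed edgeR (0.00622% of all genes did). In edgeR 9 had an unadjusted p under 0.05, against 1958 of 16089 genes tested, and 2 passed DESeq2, against 343 genes. Eno1 (enolase 1) was at 708 ± 79.3 FPM (SD, n = 4) in WT VSMC and at 1261 ± 293.7 FPM (SD, n = 4) in KO VSMC, a log2FC of 0.84 ± 0.21 (SE) with FDR = 0.298 in edgeR and 0.00404 in DESeq2. Arrdc4 was at 45.5, 30.3, 35.2 and 25.0 FPM in the 4 WT VSMC Control libraries and at 23.9, 14.4, 20.4 and 13.7 FPM in those of KO VSMC. Every KO VSMC library was below every WT VSMC library, and edgeR gave a log2FC of -0.90 ± 0.24 (SE, FDR = 0.32). Without KO VSMC set 5, whose Egfr level stood apart, 2 members passed edgeR, a count given without the share of all genes in that fit.

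Between EC and WT VSMC, 2 of 34 members (5.88%) differed under Control conditions, where 12% of all genes did. Eno2, the enolase first described in neurons, was lower in EC, with 6.31 to 26.3 FPM (median 14.5) against 36.1, 40.4, 43.4 and 47.3 FPM in WT VSMC and no overlap (log2FC -1.44 ± 0.30, SE, edgeR FDR = 0.01). Slc16a3 (MCT4), the lactate exporter of glycolytic cells, was at 3.69 to 14.2 FPM (median 6.54) in EC and at 15.02 to 30.1 FPM in WT VSMC (log2FC -1.41 ± 0.35, SE, edgeR FDR = 0.0225), again without overlap. The call of Slc16a3 was lost without WT VSMC set 3 (edgeR FDR = 0.0884) or set 4 (edgeR FDR = 0.0692). Without EC sets 9, 11 and 13, the 3 of low endothelial marker level, 5 members passed. The share of all genes in that fit is not set beside this count, which is therefore not read as particular to the members. Without EC sets 15 and 16, whose animals also gave KO VSMC, Eno2 passed (edgeR FDR = 0.0223) and Slc16a3 did not (edgeR FDR = 0.0583). The labels give VSMC and EC different batch numbers, so that cell type and batch cannot be told apart in this comparison.

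In WT VSMC edgeR called 4 members under ALL and none under a single stressor pair, although Pfkfb3 rose about as much under HG + FFA. Pfkfb3, the isoform with the highest kinase activity for fructose 2,6-bisphosphate, and the sensor Mlxip rose, and the arrestin Arrdc4 and the enolase Eno2 fell. This is 4 of 34 members (11.8%), against 7.45% of all genes tested under ALL. By the stricter DEG rule (FDR under 0.05 in edgeR and DESeq2, |log2FC| of at least 0.64 and 3 FPM), 2 members remained, Pfkfb3 and Arrdc4, against 2.22% of all genes. The median log2FC over members was 0.0383, and that over all genes -0.00998.

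**Figure D2:**
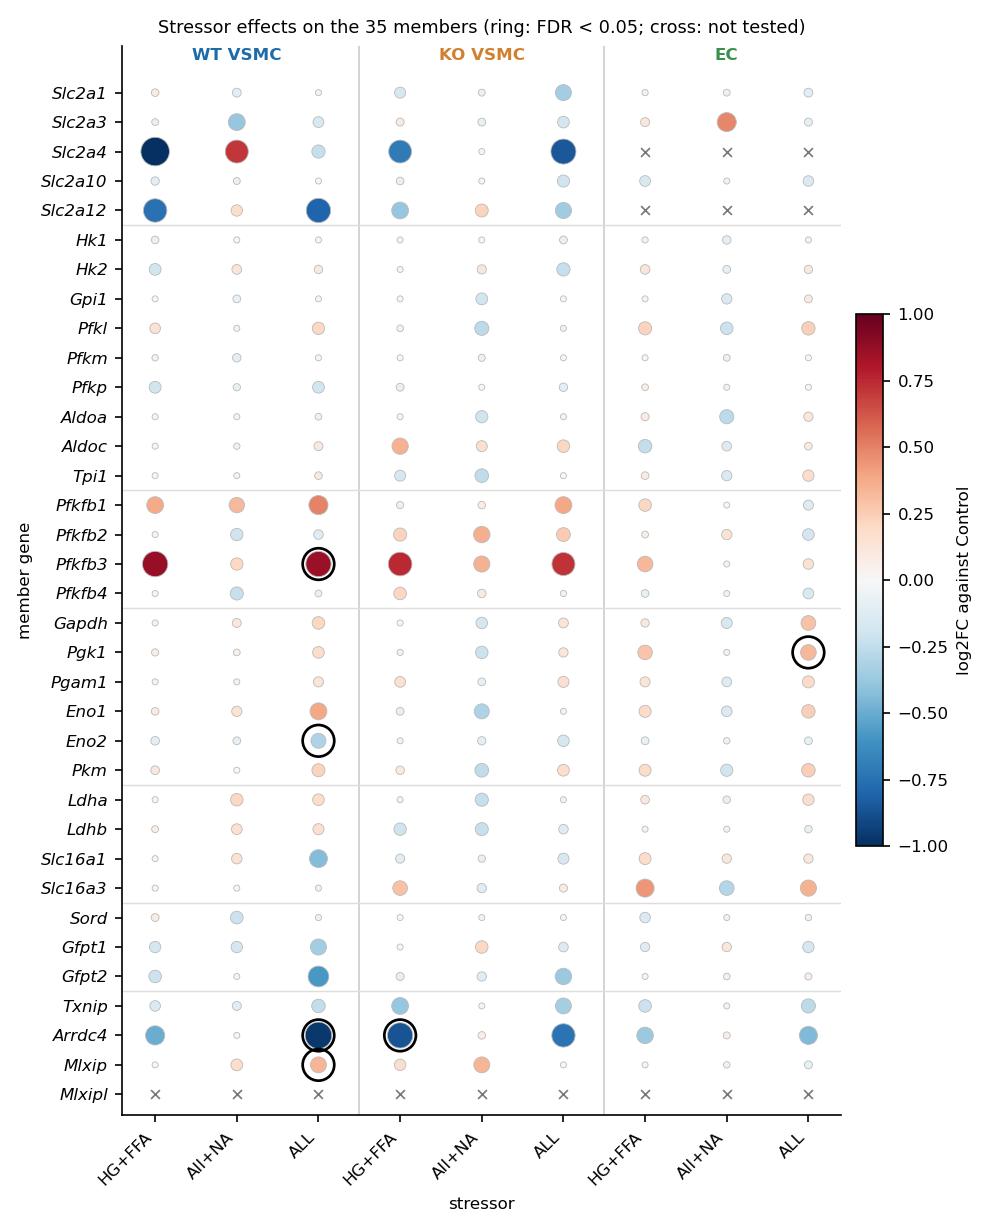
log2FC against Control of the 35 members (rows) for each stressor pair and for ALL in WT VSMC, KO VSMC and EC (columns). Colour and dot size give the log2FC, a ring an edgeR FDR under 0.05 and a cross a member that was not tested. Rings are seen at Pfkfb3, Arrdc4, Mlxip and Eno2 for ALL in WT VSMC, at Arrdc4 for HG + FFA in KO VSMC and at Pgk1 for ALL in EC.

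Pfkfb3 in WT VSMC sets 1 to 4 was at 15.1, 12.7, 10.8 and 12.4 FPM under Control, at 37.3, 19.0, 24.1 and 15.97 FPM under HG + FFA, at 15.4, 16.4, 12.6 and 13.7 FPM under AII + NA and at 45.1, 19.4, 18.5 and 15.7 FPM under ALL. Each HG + FFA and each ALL library exceeded all 4 Control libraries, and under these conditions set 1 was far above the other sets. The log2FC was 0.86 ± 0.19 (SE, edgeR FDR = 0.0123) under ALL and 0.87 ± 0.19 (SE, edgeR FDR = 0.0557) under HG + FFA, so that the latter missed the threshold in edgeR and passed in DESeq2 (FDR = 0.00139). The call under ALL was lost without set 3 (log2FC 0.89, edgeR FDR = 0.0535).

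Arrdc4 was at 45.5, 30.3, 35.2 and 25.0 FPM under Control, at 22.4, 20.8, 23.8 and 26.6 FPM under HG + FFA, at 44.3, 32.1, 32.2 and 27.8 FPM under AII + NA and at 21.1, 7.38, 29.1 and 14.6 FPM under ALL. Within each set the ALL library was below its Control library, while the groups overlapped through set 3. The log2FC under ALL was -0.96 ± 0.23 (SE, edgeR FDR = 0.0188). It was -0.91 without set 1 (edgeR FDR = 0.0773), -0.69 without set 2 (edgeR FDR = 0.0679) and -1.02 without set 4 (edgeR FDR = 0.0598). The related arrestin Txnip was at 847.6, 1216, 1328 and 1434 FPM under Control and at 418.2, 1064, 1511 and 1410 FPM under ALL, with a log2FC of -0.25 ± 0.16 (SE, edgeR FDR = 0.398). Set 1 was the lowest in both groups, and the groups overlapped.

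**Figure D3:**
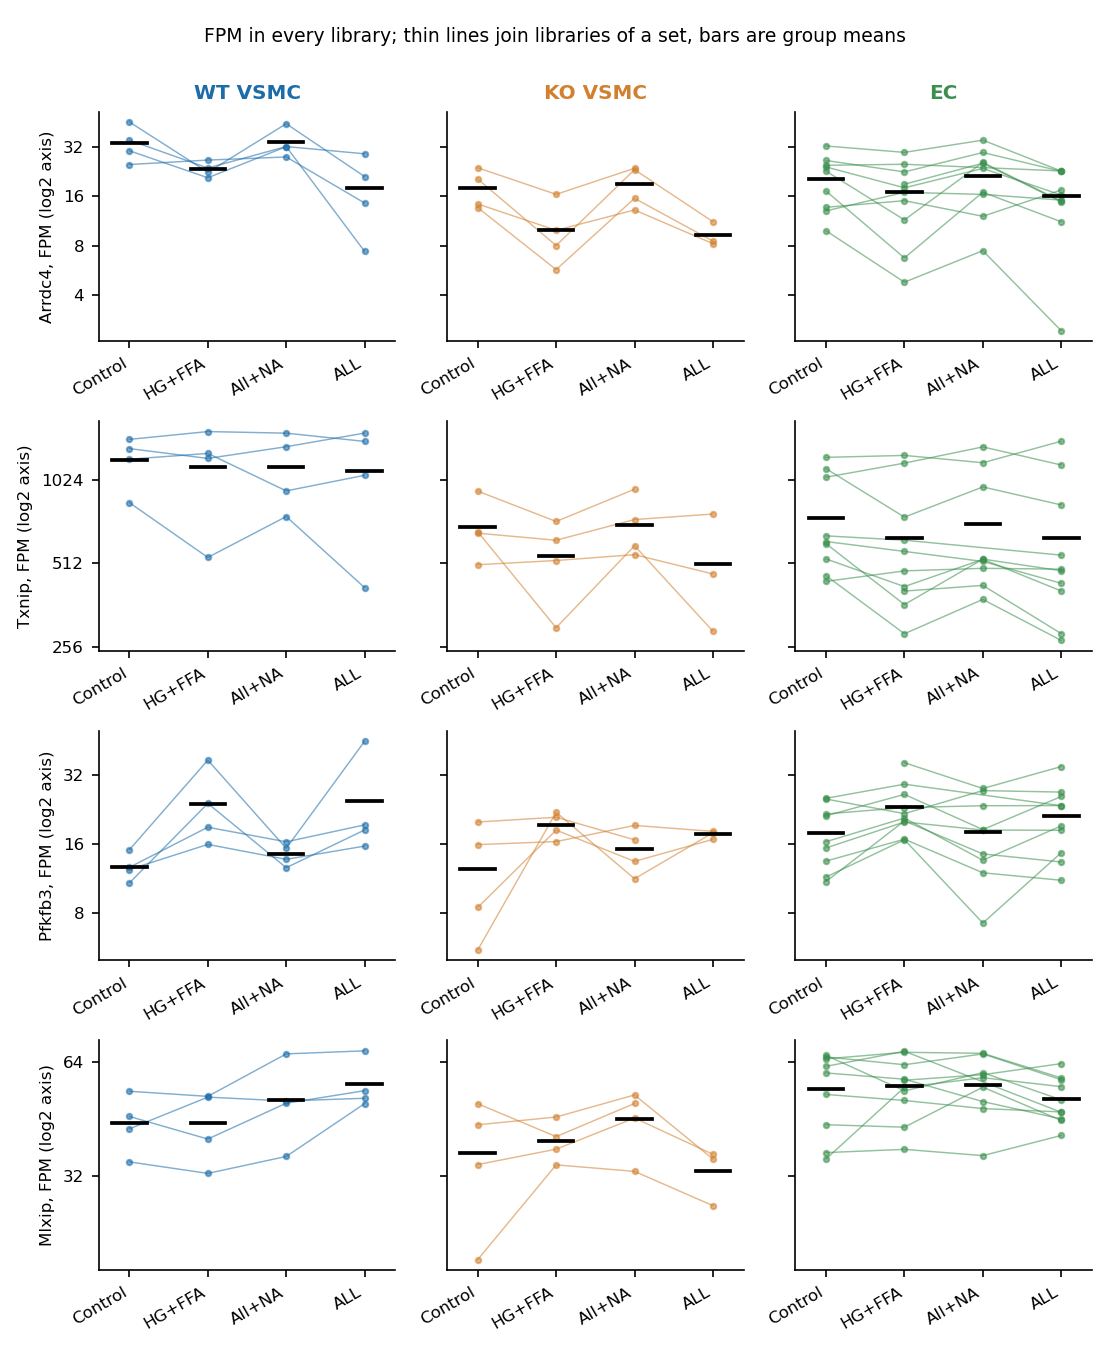
FPM of Arrdc4, Txnip, Pfkfb3 and Mlxip in every library on log2 axes, by treatment, for WT VSMC, KO VSMC and EC. Points are libraries, thin lines join the libraries of a set and bars are group means. In WT VSMC the 4 ALL libraries of Pfkfb3 (15.7 to 45.1 FPM) lie above the 4 Control libraries (10.8 to 15.1 FPM).

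Mlxip in WT VSMC was at 34.9, 42.7, 45.95 and 53.5 FPM under Control, at 32.6, 51.6, 40.1 and 51.9 FPM under HG + FFA, at 36.1, 50.5, 49.8 and 67.1 FPM under AII + NA and at 49.7, 51.3, 53.7 and 68.3 FPM under ALL. Every set was higher under ALL than under Control, though the groups overlapped, with a log2FC of 0.34 ± 0.09 (SE, edgeR FDR = 0.0282). Its call was lost without set 1 (FDR = 0.102), set 3 (FDR = 0.0705) or set 4 (FDR = 0.141), all by edgeR. Eno2 was at 36.1, 40.4, 43.4 and 47.3 FPM under Control and at 34.3, 31.4, 37.7 and 31.0 FPM under ALL, with a log2FC of -0.31 ± 0.09 (SE, edgeR FDR = 0.0454). Each set fell, and set 3 under ALL overlapped the Control range. The call of Eno2 was lost without set 2, set 3 or set 4 (edgeR FDR = 0.181, 0.106 and 0.362).

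The remaining members of WT VSMC did not pass under ALL. By role, 0 of 5 transporters, 0 of 9 genes of upper glycolysis, 1 of 4 Pfkfb enzymes, 1 of 6 genes of lower glycolysis, 0 of 4 lactate genes, 0 of 3 side branch genes and 2 of the 3 tested sensing genes were called. Slc2a1 had a log2FC of 0.04 under ALL, Hk2 was at 3.46 to 41.3 FPM (median 5.21) against 3.94 to 22.6 FPM (median 6.63) under Control, and Ldha was at 389.6 to 573.4 FPM against 320.9 to 556.2 FPM. The hexosamine entry enzyme Gfpt2 was at 23.0 to 81.1 FPM (median 31.9) under ALL and at 25.0 to 78.8 FPM (median 72.7) under Control.

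With HG + FFA alone, 0 of 34 members passed edgeR in WT VSMC (0.538% of all genes did). An unadjusted p under 0.05 was seen for 4, against 1892 of 16905 genes tested, and 1 passed DESeq2, against 294 genes. The lowest log2FC was that of Slc2a4, -1.104 at 0.249 to 0.48 FPM against 0.308 to 1.1 FPM, and the median over members was -0.0147 beside -0.00581 over all genes. With AII + NA, 0 members passed edgeR (0.0532% of all genes) and 0 passed DESeq2 (169 genes did). An unadjusted p under 0.05 was seen for 4, against 1592 of 16905 genes tested. The median there was 0.0237 beside -0.0116 over all genes. Cell type markers moved with the ALL result in WT VSMC, where 7.45% of all genes were called. Of 22 markers tested, 2 rose, Tagln (0.95) and Tnnt2 (1.07), on the log2 scale. The endothelial Cdh5 (-1.17) and Emcn (-1.57) fell, with Emcn at 0 in some libraries. Tagln was at only 1.68 to 6.59 FPM in WT VSMC, and exons of other genes cover 66.7% of its exon bases. The summed 6 endothelial markers ranged from 1.15 to 59.8 FPM under Control and from 0.618 to 26.8 FPM under ALL. The 6 smooth muscle markers summed to 329 to 1147 FPM under Control and to 1036 to 1443 FPM under ALL. Their part in the result was not tested.

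In KO VSMC Arrdc4 fell under HG + FFA, and no other member was called in a comparison with Control. Under HG + FFA it was the 1 of 34 members (2.94%) that passed edgeR, against 0.439% of all genes, and it also met the DEG rule (0.285% of all genes). In sets 5 to 8, Arrdc4 was at 23.9, 14.4, 20.4 and 13.7 FPM under Control, at 16.5, 9.94, 8.02 and 5.72 FPM under HG + FFA and at 23.7, 13.2, 23.3 and 15.6 FPM under AII + NA. In sets 6 to 8 it was at 8.24, 11.2 and 8.54 FPM under ALL. Each set was lower with HG + FFA than without, and only set 5 under HG + FFA overlapped the Control range. The log2FC was -0.87 ± 0.17 (SE, edgeR FDR = 0.03) under HG + FFA and -0.74 ± 0.19 (SE, edgeR FDR = 0.122) under ALL. The call was lost without set 6 (-1.03, edgeR FDR = 0.14), set 7 (-0.73, edgeR FDR = 0.484) or set 8 (-0.76, edgeR FDR = 0.147), and 2 members passed without set 5.

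Pfkfb3 in KO VSMC was at 20.0, 15.9, 8.46 and 5.51 FPM under Control and at 21.0, 16.4, 18.4 and 22.1 FPM under HG + FFA. The 4 sets were higher under HG + FFA, by little in sets 5 and 6 and by more in sets 7 and 8, and the groups overlapped (log2FC 0.76 ± 0.24, SE, edgeR FDR = 0.246). Under ALL, 0 of 34 members passed edgeR (0.399% of all genes did), and the log2FC of Pfkfb3 was 0.72 ± 0.26 (SE, edgeR FDR = 0.34). An unadjusted p under 0.05 was seen for 4 members, against 1842 of 17538 genes tested, and 1 passed DESeq2, against 259 genes. Under AII + NA, 0 members passed edgeR or DESeq2, where 0% of all genes passed edgeR and 11 genes passed DESeq2. An unadjusted p under 0.05 was seen for 8 members, against 1711 of 17538 genes tested. All 6 genes of lower glycolysis were below 0 there, between -0.31 (Eno1) and -0.08 (Pgam1) on the log2 scale, none called. The medians over members were -0.0145, -0.0668 and -0.0196 for HG + FFA, AII + NA and ALL, beside 0.00355, 0.0076 and -0.00177 over all genes. Mlxip was at -0.01 under ALL and Txnip at -0.34 (edgeR FDR = 0.562).

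The tests of the difference between genotypes called no member. For HG + FFA, AII + NA and ALL, 0 of 34 members differed between WT VSMC and KO VSMC in edgeR and 0 in DESeq2. Of all genes, 0%, 0% and 0.0109% passed edgeR. At an unadjusted p under 0.05 were 0, 4 and 2 members, against 564, 2182 and 1361 of 18339 genes tested. The smallest p under ALL was that of Mlxip, with a WT minus KO difference of 0.36 ± 0.17 (SE, p = 0.0465, edgeR FDR = 0.661). An effect called in WT VSMC and not in KO VSMC is therefore not shown to differ between them. No member departed from additivity of the stressor pairs on the log2 scale. For the 3 cell types (in the order WT VSMC, KO VSMC, EC), 0 members passed edgeR and 0 passed DESeq2, and 0%, 0% and 0% of all genes passed edgeR. At an unadjusted p under 0.05 were 1, 4 and 9 members, against 290 of 16905, 1155 of 17538 and 1444 of 17148 genes tested. The gain of ALL over HG + FFA called 0 members by edgeR in each cell type, where 0.0414%, 0% and 0% of all genes passed. Members at an unadjusted p under 0.05 were 6, 0 and 2, against 1829 of 16905, 510 of 17538 and 881 of 17148 genes tested. DESeq2 called 1, 0 and 0 members, against 224, 0 and 0 genes.

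In EC, edgeR called 1 member in the comparisons with Control, Pgk1 (phosphoglycerate kinase), which rose under ALL. Under HG + FFA, 0 of 32 members passed edgeR (3.53% of all genes did). An unadjusted p under 0.05 was seen for 10, against 2894 of 17148 genes tested, and 3 passed DESeq2, against 969 genes. The lowest FDR was that of Pgk1 (log2FC 0.29, edgeR FDR = 0.0639), and Pfkfb3 (0.33, edgeR FDR = 0.0675) and Pfkl (0.23, edgeR FDR = 0.0775) were near it. Under AII + NA, 0 members passed edgeR or DESeq2, and 0% of all genes passed. An unadjusted p under 0.05 was seen for 6 members, against 1143 of 17148 genes tested. Under ALL it was 1 of 32 (3.12%), against 3.18% of all genes, and DESeq2 called 8, against 5.22% of all genes. The member medians were 0.0631, -0.0525 and 0.0477 for the 3 conditions, beside -0.00336, 0.01 and -0.0124 over all genes.

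Pgk1 makes the first ATP of the payoff steps. In EC it was at 119.8 to 673.5 FPM (median 307.5) under Control, at 123.1 to 688.9 FPM (median 406) under HG + FFA, at 138.9 to 691 FPM (median 273.6) under AII + NA and at 137.4 to 781.4 FPM (median 432.2) under ALL. The groups overlapped over nearly their whole range, because sets differed widely, and the change is seen within sets (log2FC 0.33 ± 0.09, SE, edgeR FDR = 0.0294 under ALL). The call was lost when any of sets 10, 12, 13, 14, 15, 17 or 18 was left out, with edgeR FDR of up to 0.117. It was also lost with the animal in place of the set as block (log2FC 0.33, edgeR FDR = 0.21), since EC sets 17 and 18 share an animal, and was kept without sets 15 and 16 (log2FC 0.42, edgeR FDR = 0.0183).

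The same libraries can be read as a 2 by 2 design, in which the metabolic effect is averaged over the absence and presence of AII + NA. This contrast, its humoral counterpart and ALL against AII + NA were added after the data had been seen, share libraries with the comparisons above and are no independent evidence. In EC, 14 of 32 members (43.8%) changed with the metabolic stressors, against 8.6% of all genes tested. Of these, 11 rose, where 3.47% of all genes rose, and 3 fell, where 5.13% of all genes fell. The median log2FC over the members was 0.0289, beside -0.00604 over all genes. The 11 were Gpi1, Pfkl, Aldoa and Tpi1 of upper glycolysis, Gapdh, Pgk1, Pgam1, Eno1 and Pkm of lower glycolysis, Pfkfb3 and Slc16a3, and the 3 that fell were Gfpt1, Arrdc4 and Txnip.

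Of upper glycolysis, 4 of 9 members rose in EC: Pfkl, Aldoa, Tpi1 and Gpi1. Pfkl, the liver-type phosphofructokinase, was at 84.5 to 274 FPM (median 134.7) under Control, at 101.1 to 283 FPM (median 156.4) under HG + FFA, at 67.7 to 257.4 FPM (median 115.6) under AII + NA and at 102.6 to 337.5 FPM (median 166.2) under ALL. It was higher with HG + FFA in 9 of 10 sets, with an averaged log2FC of 0.34 ± 0.05 (SE, edgeR FDR = 3.1e-05). The other subunits were close to 0, Pfkm at 0.02 and Pfkp at 0.00 on the log2 scale (edgeR FDR = 0.838 and 0.99). Aldoa (0.24, FDR = 0.00267), Tpi1 (0.20, FDR = 0.00507) and Gpi1 (0.13, FDR = 0.0398) followed, all by edgeR, higher in 8, 9 and 8 of 10 sets. For these 3, HG + FFA over Control was higher in only 6, 6 and 4 of 9 sets. ALL over AII + NA was higher in 8, 9 and 8 of 9 sets. Gpi1 lost its call without set 9, 10, 12, 15, 16, 17 or 18, and with single sets left out its log2FC was 0.10 to 0.15. Hk1 (0.04) and Hk2 (0.15) were not called.

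Lower glycolysis showed the highest share, with 5 of 6 members up and Eno2 as the exception. Pkm, the pyruvate kinase of proliferating and muscle cells, was at 378.4 to 932.1 FPM (median 595.8) under Control, at 407.9 to 1036 FPM (median 637.1) under HG + FFA, at 262.9 to 909.8 FPM (median 520.3) under AII + NA and at 473.4 to 1208 FPM (median 722.1) under ALL. It was higher in 9 of 10 sets (averaged log2FC 0.32 ± 0.05, SE, edgeR FDR = 8.85e-05). Eno1 (0.30, FDR = 0.000179), Pgk1 (0.33, FDR = 0.00049), Pgam1 (0.23, FDR = 0.000646) and Gapdh (0.28, FDR = 0.00323) rose too in edgeR, in 9, 10, 9 and 8 of 10 sets. HG + FFA over Control was higher in 7, 8, 8 and 5 of 9 sets for these members. ALL over AII + NA was higher in 9, 8, 9 and 9 of 9 sets. Eno2 had a log2FC of -0.06 (edgeR FDR = 0.743).

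**Figure D4:**
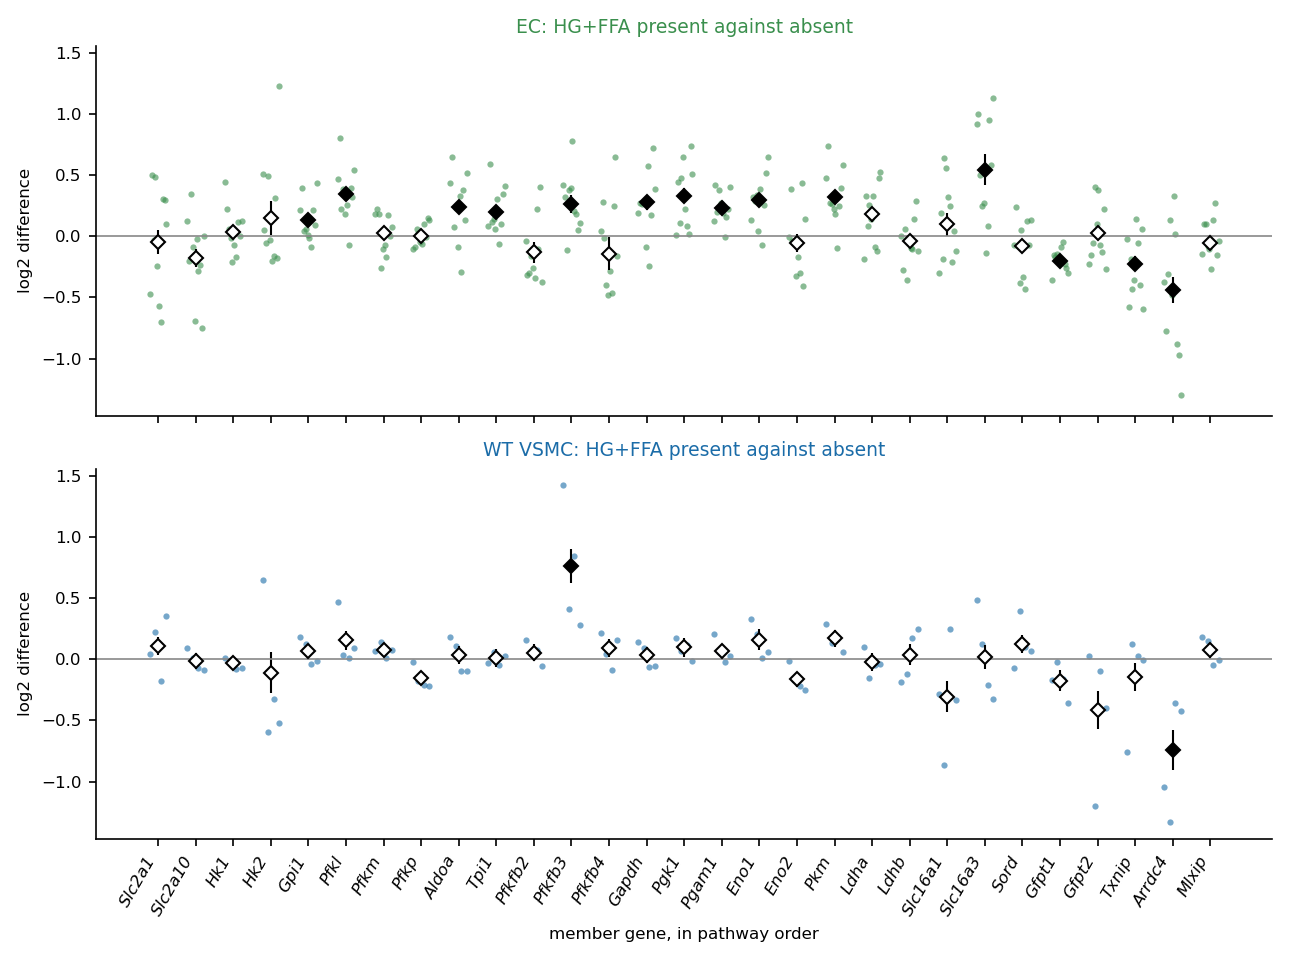
log2 difference between the presence and absence of HG + FFA for the members in pathway order, in EC and WT VSMC. Small points are sets, diamonds are edgeR's averaged effect with its SE, and filled diamonds have an FDR under 0.05. Slc2a4 and 5 other members of low level are not drawn. In EC the filled diamonds between Gpi1 and Pkm lie at 0.13 to 0.34, with Slc16a3 at 0.54 and Arrdc4 at -0.44, and in WT VSMC those of Pfkfb3 (0.76) and Arrdc4 (-0.74) are filled.

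Around the pathway, Slc16a3 had the largest averaged log2FC of the 32 members tested in EC, 0.54 ± 0.13 (SE, edgeR FDR = 0.00449). Its level was 3.69 to 14.2 FPM (median 6.54) under Control, 4.28 to 30.9 FPM (median 11.4) under HG + FFA, 1.19 to 15.1 FPM (median 6.54) under AII + NA and 4.88 to 24.2 FPM (median 9.69) under ALL, and it was higher in 9 of 10 sets. Ldha did not pass (0.18, edgeR FDR = 0.0759), although DESeq2 gave an FDR of 0.0478, and Ldhb and Slc16a1 were at -0.04 and 0.10. Pfkfb3 rose by 0.26 ± 0.07 (SE, edgeR FDR = 0.0182) in 9 of 10 sets, with its call lost without set 9, 13 or 14 (FDR = 0.0513, 0.0545 and 0.0653), while the other 3 Pfkfb members were not called. For Pfkfb3, HG + FFA over Control was higher in 8 of 9 sets and ALL over AII + NA in 5 of 9. The 3 transporters tested in EC were not called, with Slc2a1 at 22.2 to 86.0 FPM (median 47.2) under Control and 25.4 to 118.2 FPM (median 43.9) under HG + FFA (averaged log2FC -0.05, edgeR FDR = 0.85).

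Gfpt1, which opens the hexosamine branch, fell in 10 of 10 EC sets. It was at 67.1 to 150.9 FPM (median 92.8) under Control, at 61.4 to 131.8 FPM (median 84.2) under HG + FFA, at 72.6 to 160.6 FPM (median 95.0) under AII + NA and at 60.6 to 145.5 FPM (median 78.1) under ALL, with an averaged log2FC of -0.21 ± 0.04 (SE, edgeR FDR = 0.000486). Its paralog Gfpt2 was not called (0.02, edgeR FDR = 0.885). Arrdc4 was at 9.87 to 32.5 FPM (median 22.8) under Control and at 2.42 to 22.9 FPM (median 15.7) under ALL, was lower with HG + FFA in 7 of 10 sets, and its averaged log2FC was -0.44 ± 0.11 (SE, edgeR FDR = 0.00673). Txnip was at 440.6 to 1235 FPM (median 613.6) under Control and at 269.8 to 1412 FPM (median 484.5) under ALL, lower in 8 of 10 sets (averaged log2FC -0.22 ± 0.06, SE, edgeR FDR = 0.0189). The call of Txnip was lost without set 12, 13, 16 or 18, with edgeR FDR of up to 0.0919. Groups overlapped for each of these genes. Mlxip was at -0.06 (edgeR FDR = 0.635), and Mlxipl, at up to 0.793 FPM and at 0 in many EC libraries, was not tested.

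The count of 14 was 12 without EC sets 9, 11 and 13, of which 10 were among the 14. It was 13 without sets 15 and 16, of which 12 were among the 14, with Txnip (edgeR FDR = 0.0885) and Gpi1 (edgeR FDR = 0.114) lost, and it was 0 in a model without the sets as a block. ALL against AII + NA gave 11 of 32 members (34.4%) in EC against 3.22% of all genes, 10 higher (1.38% of all genes) and 1, Gfpt1, lower (1.84%). The 10 were Pfkl, Pkm, Eno1, Aldoa, Gapdh, Pgam1, Tpi1, Pgk1, Gpi1 and Slc16a3, at 0.23 to 0.64 on the log2 scale. The call of Slc16a3 was lost without set 9, 10, 11, 12, 15, 16 or 18 (edgeR FDR of up to 0.141) and that of Gpi1 without set 10, 12 or 18 (up to 0.0824), and the count was 9 to 12 with single sets left out. Without sets 15 and 16 together it was 9, with these 2 lost. For the fits with sets left out, the share of all genes called is not given beside the counts. Marker levels moved with the metabolic contrast in EC, where 5 of 22 tested markers were called, against 8.6% of all genes. The endothelial Emcn rose (0.36), and the endothelial Tek (-0.32) and the fibroblast genes Pdgfra (-0.32), Col1a1 (-0.54) and Dpt (-0.43) fell. The 6 endothelial markers summed to 43.9 to 3575 FPM (median 724) under Control, 48.2 to 4452 FPM (median 1288) under HG + FFA, 43 to 3476 FPM (median 729) under AII + NA and from 52 FPM (median 1216) under ALL, where the highest library lay between the highest of Control and of HG + FFA. The 5 fibroblast markers summed to medians of 3362, 2539, 3358 and 2632 FPM in the same order, with Dpt at 0 in some libraries. Control and AII + NA lack 1 set each, so that these medians are not over the same sets. Their part in the result was not tested.

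In the averaged metabolic contrast of WT VSMC, 3 of 34 members (8.82%) were called, against 6.77% of all genes. Pfkfb3 rose in 4 of 4 sets (0.76 ± 0.14, SE, edgeR FDR = 0.00334), Arrdc4 fell in 4 of 4 (-0.74 ± 0.16, SE, edgeR FDR = 0.0126), and Slc2a4 fell in 4 of 4 (-1.03 ± 0.26, SE, edgeR FDR = 0.0289). Slc2a4 was near the floor, at 1.1, 0.308, 0.685 and 0.766 FPM under Control, at 0.249, 0.48, 0.251 and 0.323 FPM under HG + FFA, at 1.44, 0.56, 1.21 and 1.52 FPM under AII + NA and at 0.617, 0.357, 0.4 and 1.12 FPM under ALL. The order within sets 1, 3 and 4 was the same in both pairs, while set 2 was higher with HG + FFA alone. Its call was lost without set 1, 3 or 4, and that of Arrdc4 without set 1 (edgeR FDR = 0.102). ALL against AII + NA called 1 member in WT VSMC, Arrdc4 (-0.98 ± 0.23, SE, edgeR FDR = 0.0492), where 1.36% of all genes passed, and the call was lost without set 1, 2 or 4 (edgeR FDR = 0.179, 0.143 and 0.103).

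In KO VSMC the averaged metabolic contrast called 1 of 34 members, Arrdc4 (-0.84 ± 0.12, SE, edgeR FDR = 0.00165, lower in 4 of 4 sets), against 2.18% of all genes, and the call was lost without set 7 (edgeR FDR = 0.0702). Of 22 markers tested in this contrast, 3 fell in KO VSMC, against 2.18% of all genes called. They were the smooth muscle genes Myh11 (-0.68) and Smtn (-0.37) and the cardiomyocyte marker Tnnt2 (-1.08). In WT VSMC, where 6.77% of all genes were called, 2 fell, Dpt (-0.23) and the leukocyte gene Adgre1 (-1.18), which was at 0 in some libraries. The 6 smooth muscle markers of KO VSMC summed to 930 to 2922 FPM under Control, 661 to 3327 FPM under HG + FFA, 1003 to 3053 FPM under AII + NA and 773 to 1893 FPM under ALL, and the 4 leukocyte markers of WT VSMC to 26.1 to 229, 30.3 to 165, 30.9 to 206 and 32.1 to 141 FPM in that order. KO VSMC under ALL lacks set 5, the set with the highest smooth muscle sum, so that its range is not over the same sets. The part of these markers in the Arrdc4, Pfkfb3 and Slc2a4 results was not tested. ALL against AII + NA called 0 members by edgeR in KO VSMC (0.399% of all genes). An unadjusted p under 0.05 was seen for 8, against 1818 of 17538 genes tested, and DESeq2 called 2, against 300 genes. The averaged humoral contrast called 1 member in WT VSMC, Mlxip (0.27 ± 0.06, SE, edgeR FDR = 0.0271), where 3.41% of all genes passed, and this was lost without set 3 (FDR = 0.0938) or set 4 (FDR = 0.362). It called 0 in EC and 0 in KO VSMC by edgeR and by DESeq2, where 0% and 0% of all genes passed edgeR. At an unadjusted p under 0.05 was 1 member each, against 584 of 17148 and 677 of 17538 genes tested.

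Whether stressor effects on members differ between cell types was tested directly. For HG + FFA, AII + NA and ALL, 0 of 35 members differed between EC and WT VSMC by edgeR or DESeq2, where 0%, 0.0465% and 0.511% of all genes passed edgeR. At an unadjusted p under 0.05 were 2, 2 and 4 members, against 397, 1258 and 1255 of 19362 genes tested. For the averaged metabolic effect it was 0 of 35 by either tool, where 0.0981% of all genes passed edgeR. At an unadjusted p under 0.05 were 11 of 35 members, against 949 of 19362 genes tested. The lowest FDR was that of Pfkfb3, whose EC minus WT VSMC difference was -0.69 ± 0.21 (SE, edgeR FDR = 0.17) under ALL and -0.49 ± 0.15 (SE, edgeR FDR = 0.34) for the averaged effect. The averaged metabolic effect of WT VSMC minus KO VSMC called 0 of 34 by either tool (0.0327% of all genes by edgeR). At an unadjusted p under 0.05 was 1 member, against 1009 of 18339 genes tested. The rise of glycolytic members in EC is thus not shown to be particular to EC. In KO VSMC, ALL over AII + NA was higher in 3 of 3 sets for Gapdh, Pgk1, Pgam1, Eno1 and Pkm. Their median log2 ratios were 0.318, 0.306, 0.163, 0.411 and 0.594, while Eno2 was higher in 1 of 3 sets. HG + FFA over Control was higher in only 2, 2, 3, 1 and 3 of 4 sets for these members, and in 2 of 4 for Eno2. The difference between EC and KO VSMC was not tested.

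Sets differed from each other more than treatments did for most members. On the log2 scale, the SD of set means exceeded the SD of treatment means for 29 of 35 members in WT VSMC, 34 in EC and 31 in KO VSMC. The median SDs were 0.312 between sets and 0.109 between treatments in WT VSMC, 0.355 and 0.14 in KO VSMC, and 0.571 and 0.13 in EC. Arrdc4 and Pfkfb3 were among the exceptions in both VSMC genotypes, with a ratio of set to treatment SD of 0.627 and 0.811 in WT VSMC and of 0.95 and 0.76 in KO VSMC. At the other end, set means of Hk2 in WT VSMC ran from 3.42 FPM in set 4 to 30.5 FPM in set 1, and those of Gfpt2 in EC from 23.3 FPM in set 9 to 279 FPM in set 11.

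**Figure D5:**
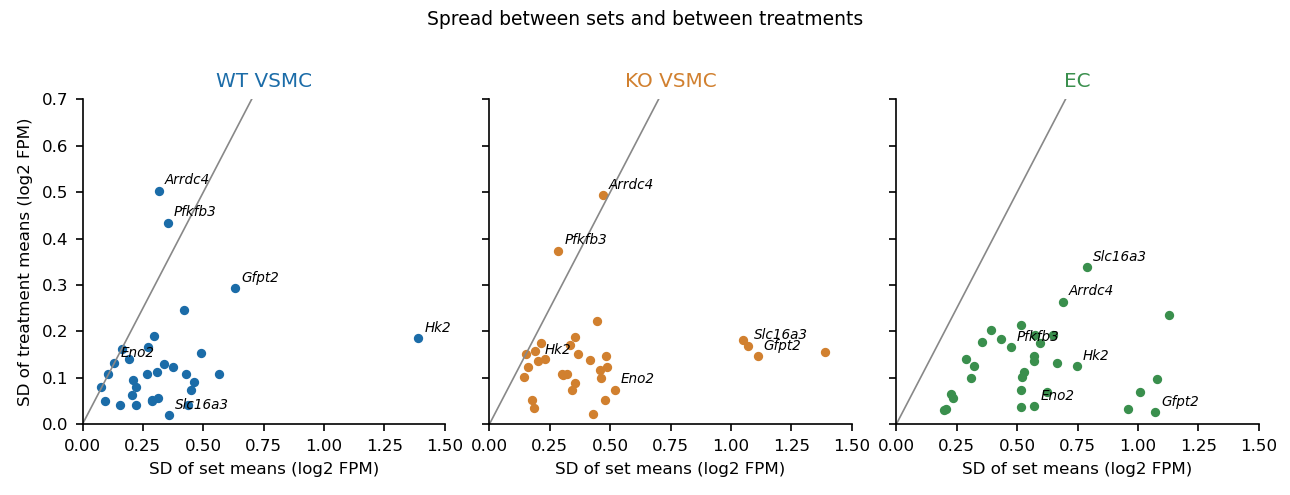
SD of treatment means against SD of set means (log2 FPM) for the members in WT VSMC, KO VSMC and EC. Points are members other than Mlxipl, Slc2a4 and Slc2a12, and the line marks equal SDs. Most points lie below the line, and Arrdc4 and Pfkfb3 lie above it in both VSMC genotypes.

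The wider pathway list held 43 further genes of sugar transport, glycolysis, the pentose phosphate, polyol and hexosamine branches. In WT VSMC, 1 of 35 tested changed under ALL, against 7.45% of all genes. It was Adpgk (ADP-dependent glucokinase), which rose by 0.40 ± 0.07 (SE, edgeR FDR = 0.00299). By edgeR 0 changed under HG + FFA (4 at an unadjusted p under 0.05, 0 by DESeq2) or AII + NA (5 and 1). In KO VSMC 0 of 34 were called by edgeR and 0 by DESeq2 under HG + FFA, AII + NA or ALL, with 10, 6 and 8 at an unadjusted p under 0.05. In EC, 3 of 33 were called under HG + FFA (3.53% of all genes) and 3 under ALL (3.18%), namely Taldo1 (transaldolase, 0.34 and 0.42), Gpd2 (mitochondrial glycerol 3-phosphate dehydrogenase, 0.29 and 0.26) and Khk (ketohexokinase, -0.50 and -0.45), and 0 by edgeR or DESeq2 under AII + NA (3 at an unadjusted p under 0.05). The averaged metabolic contrast in EC called 9 of 33, against 8.6% of all genes, with Taldo1 (0.45), Tigar (0.28), Eno1b (0.25), Gpd2 (0.19) and Pgd (0.17) up and Slc2a13 (-0.37), Khk (-0.33), Pgm3 (-0.26) and Oga (-0.15) down. Under Control conditions 5 of 33 differed between EC and WT VSMC, where 12% of all genes did, with Slc2a13 (1.37) higher in EC and Slc2a8 (-0.65), Pgd (-0.88), Pgls (-0.96) and H6pd (-2.40) lower.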

How the data were processed

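RNA was poly(A)-selected and sequenced as paired ends. The authors deposited raw counts per gene for each library, made with HISAT2 2.1.0 and featureCounts, as the submitters' processing notes give, on mm39 with multi-mapping reads counted; the strand setting is not given in the sources used here. Symbols came from GENCODE vM39, another release, which held 56310 of 56953 identifiers (0.0241% of counts were not found). Members and lists were chosen with earlier results of these data known. The averaged metabolic and humoral contrasts, ALL against AII + NA and EC without sets 9, 11 and 13 or without sets 15 and 16 were added after the data had been seen.

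From the counts, edgeR 4.0.16 (R 4.3.3; filterByExpr, TMM, quasi-likelihood test, Benjamini-Hochberg adjustment) was fitted over all genes of a cell type (16905, 17538 and 17148 tested in WT VSMC, KO VSMC and EC) with set as a block. Set numbers pair libraries of 1 animal and passage: deviations of same-set libraries correlated at r = 0.442 to 0.836 (WT VSMC), 0.514 to 0.831 (KO VSMC) and 0.48 to 0.876 (EC), and 0 libraries were identical. Pairs from different sets had a median r of -0.307, -0.267 and -0.128 in that order. They reached 0.247, 0.0934 and 0.556, so that the ranges overlapped in EC. DESeq2 1.42.0 was an alternative, and its NA values were left out. log2 ratios per set used a pseudocount of 0.1 FPM. Named were members past FDR 0.05 in a stressor comparison and 9 fixed ones (Slc2a1, Hk2, Pfkfb3, Ldha, Gfpt2, Txnip, Arrdc4, Mlxip, Mlxipl); wider lists covered pathway genes, hypoxia targets, factors and markers. On simulated data for HG + FFA against Control, 55%, 37% and 68% of 100 genes changed by a log2FC of 0.5 were called in WT VSMC, KO VSMC and EC, and 97%, 97% and 96% of those changed by 1. These genes were drawn from those with a mean of at least 3 FPM, so that members of lower level are not covered. Within a cell type, sets came from separate animals, except EC sets 17 and 18.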

Additional observations from a re-analysis of the deposited data

Results flagged for a closer look

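In 168 groups of set-wise log2 ratios against Control (21 members), 7 held 1 set that lay far from the others by Dixon's criterion, which chance alone meets in about 1 in 20 groups. In EC, Pgk1 under ALL was at -0.315 in 1 set and at 0.198 to 0.71 in the others. Eno2 in EC was at 0.626 in 1 set under HG + FFA (others -0.444 to 0.0897) and at 0.578 under ALL (others -0.437 to 0.0438). Slc16a3 in EC under AII + NA was at -1.88 in 1 set and at -0.691 to 0.356 in the others. Arrdc4 in EC under ALL was at -1.98 in 1 set and at -0.618 to 0.347 in the others. Mlxip in EC under HG + FFA was at 0.622 in 1 set and at -0.308 to 0.131 in the others. Ldha in KO VSMC under AII + NA was at 0.0706 in 1 set and at -0.352 to -0.322 in the others.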

How the results depend on the processing

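There were 754 alternative values. For single members, 362 values kept the call, 114 lost it and 0 reversed in direction, and only such values could be recorded as reversed. Of the counts of members, 66 moved by more than 1.5 times or to or from 0. The other 194 stayed, counts of 0 in both fits included. DESeq2 called 1 member for HG + FFA and 1 for ALL against HG + FFA in WT VSMC, 3 for ALL against AII + NA there, 1 for ALL, 2 for ALL against AII + NA and 3 for the averaged metabolic effect in KO VSMC, 3 for HG + FFA and 8 for ALL in EC, and 2 for Control KO VSMC against WT VSMC. The DEG rule left 2 for ALL in WT VSMC and 0 in EC. With no filter on low counts, 2 and 8 were called for HG + FFA and ALL in WT VSMC, 3 and 2 in KO VSMC and 2 and 6 in EC. Without the replicate block, that is without the pairing by set, 0 members were called in any comparison within a cell type. Fits of only the groups compared gave 1 for HG + FFA in WT VSMC, 0 for HG + FFA in KO VSMC and 0 for ALL in EC. In EC, the animal as block gave 0 for ALL, and complete sets only gave 1 for HG + FFA and 0 for ALL. Without EC sets 9, 11 and 13, Control EC against WT VSMC gave 5. Without EC sets 15 and 16, HG + FFA in EC gave 1 and Control EC against WT VSMC gave 1. Leaving out 1 set at a time gave, in WT VSMC, 0 to 1 for HG + FFA, 1 to 2 for ALL, 0 to 1 for ALL against AII + NA, 1 to 3 for the metabolic and 0 to 3 for the humoral average. In KO VSMC it gave 0 to 2 for HG + FFA, 0 to 1 for ALL against AII + NA and 0 to 1 for the metabolic average. In EC it gave 0 to 1 for HG + FFA, 0 to 4 for ALL, 9 to 12 for ALL against AII + NA and 12 to 15 for the metabolic average. For Control levels it gave 0 to 2 for KO VSMC and 1 to 2 for EC against WT VSMC. In this section the counts stand without the shares of all genes called in the same fits, and are not read as particular to the members. The cause of these changes was not tested.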

Other observations

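Some targets of hypoxia-inducible factors outside the pathway were called, in both directions. In EC these were 5 of 15 in the averaged metabolic contrast, against 8.6% of all genes, with Adm (adrenomedullin, 0.49), Mif (0.47), Egln3 (a prolyl hydroxylase, 0.30) and P4ha1 (0.15) up and Ndrg1 (-0.56) down on the log2 scale by edgeR. In WT VSMC, 3 of 15 were called in the same contrast, against 6.77% of all genes, with Vegfa (0.23) and P4ha1 (0.29) up and Ndrg1 (-0.42) down. In KO VSMC, 2 of 15 were called, against 2.18% of all genes, P4ha1 (0.39) up and Ndrg1 (-0.69) down.

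Of 5 transcription factors, Klf15 fell in the averaged metabolic contrast in WT VSMC (-0.40), KO VSMC (-0.68) and EC (-0.66) by edgeR. Klf10 rose in KO VSMC (0.71) and EC (0.36), and Myc fell in WT VSMC (-0.40). Of all genes, 6.77%, 2.18% and 8.6% were called in this contrast in WT VSMC, KO VSMC and EC. Whether these effects differ between the cell types was not tested. Under AII + NA, 0 hypoxia targets and 0 of the factors were called by edgeR or DESeq2 in any cell type, with 3, 2 and 1 hypoxia targets and 1, 0 and 0 factors at an unadjusted p under 0.05 in WT VSMC, KO VSMC and EC.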
